A study of Mus musculus with 12 samples.

Results

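The genes described here build or control the contacts between epithelial cells: the cadherins Cdh1 and Cdh2, the adhesion molecule Epcam, the claudins Cldn3, Cldn4, Cldn6 and Cldn7, occludin (Ocln), and the regulators Esrp1 and Grhl2. They were chosen by name, with earlier results of these data known, through the mouse symbols of the Ensembl identifiers in the deposited count table. All 10 were found among its 45706 genes. Each of the 10 also passed the filter on low counts, which needs expression in only part of the libraries, so nothing is read from that.

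Bulk RNA sequencing covered 12 libraries, 3 replicates from each of 4 groups of mouse cells, to compare glial progenitors before and after activation of Sox1 with earlier neuroepithelial cells. The cells descend from Sox1-GFP embryonic stem cells, in which GFP replaces 1 copy of Sox1, and the labels give the strain C57BL/6. NSC are unsorted neuroepithelial cells after about a week of neural induction, and NR are neuroepithelial cells sorted for GFP, named neural rosettes. Baseline are glial progenitors labelled Sox1-negative and not sorted, and Sox1posGP are glial progenitors sorted as Sox1-positive after dCas9-VP64, a nuclease-dead Cas9 fused to an activator, was directed to the Sox1 promoter. Glial progenitors grew in medium with bFGF and EGF on laminin. The lines carrying dCas9-VP64 were each grown from a single cell. For its replicates in general, the paper gives different days and different clonal lines. By the labels, sorting goes together with Sox1 activation, so the effects of the 2 on the glial groups cannot be told apart. The paper's text instead describes sorting for its comparison of progenitors with and without induction, and which holds for Baseline is not settled by the files.

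Total counts in replicates 1 to 3 were 43095688, 29046205 and 31298912 in NSC and 16707006, 30291431 and 34594885 in NR. They were 18351483, 7434718 and 4939268 in Baseline and 3407066, 6315574 and 5875864 in Sox1posGP. Levels are given in CPM, a gene's count as a share of its library's size after TMM scaling, and per kilobase of merged exon where levels of different genes are compared. A total of 3 counts over a group, the floor used here, is 0.0282 CPM in NSC, 0.0362 in NR, 0.104 in Baseline and 0.190 in Sox1posGP. Depth differs with group, so low levels are measured least well in Sox1posGP. Chi-square per degree of freedom between replicates, a spread relative to counting error, was 1.54 to 2.07 within Sox1posGP and 1.66 to 6.59 within Baseline. Within NSC it was 10.2 to 49, and within NR 18.1 to 47.8. The measure rises with depth, and how far the glial replicates differ beyond counting error was not tested further. Intervals and floors cover counting error only, because amplified reads are not independent molecules.

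Cadherins hold neighbouring cells together in adherens junctions, and claudins and occludin seal the space between cells in tight junctions. In the embryo, the epiblast carries Cdh1 and Epcam, and during neural induction the neural plate loses Cdh1 and gains Cdh2, the cadherin switch. Neuroepithelial cells later lose tight junctions while keeping adherens junctions built on Cdh2.

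The labels were checked against lists of marker genes before the junction genes were compared. The 10 pluripotency markers summed to 193, 70.2 and 175 CPM in NSC replicates 1 to 3 and to 3352, 1762 and 2587 in NR, where Dppa5a was the most abundant at 1612, 812.8 and 1272 CPM. The 8 neuroepithelial markers, with Nes the most abundant in both groups, summed to 1566, 1299 and 1514 CPM in NSC and to 387, 768 and 661 in NR. In the glial groups the same lists summed to between 15.7 and 46.8 CPM, with Klf4 the most abundant, and to between 458 and 601 CPM, with Sox2 the most abundant in Baseline and Nes in Sox1posGP. The level of Sox1 itself was 48.6, 64.95 and 51.75 CPM in NSC, 4.62, 20.0 and 19.2 in NR, 4.83, 6.00 and 5.43 in Baseline and 20.3, 20.9 and 21.7 in Sox1posGP. Baseline thus holds some Sox1 RNA, and NR 1, labelled as sorted for the reporter, lies below all Baseline libraries. The libraries labelled NR hold more pluripotency and less neuroepithelial RNA than the NSC libraries, against a label of sorted neuroepithelial cells, and they are called the libraries labelled NR here. The 8 glial progenitor markers, led by Slc1a3 in the glial groups, summed to 5989, 5773 and 5627 CPM in Baseline and 3304, 3273 and 3190 in Sox1posGP, and to between 202 and 721 CPM in the other 6 libraries. NSC 2 and NR 2 stand apart in the 7 mesenchymal markers. These summed to 3566, 1809 and 3504 CPM in NSC and 7783, 2103 and 5230 in NR, against 20.2 to 41.4 in the glial libraries. By group, Col3a1 was the most abundant in NSC and Col1a1 in NR. Acta2 went against the sums, with 142.6, 880.1 and 140.7 CPM in NSC and 274.6, 696.4 and 206.2 in NR. In NSC 2 it was the most abundant of the list. Values without NSC 2 and NR 2 are given for part of the genes and lists.

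**Figure D1:**
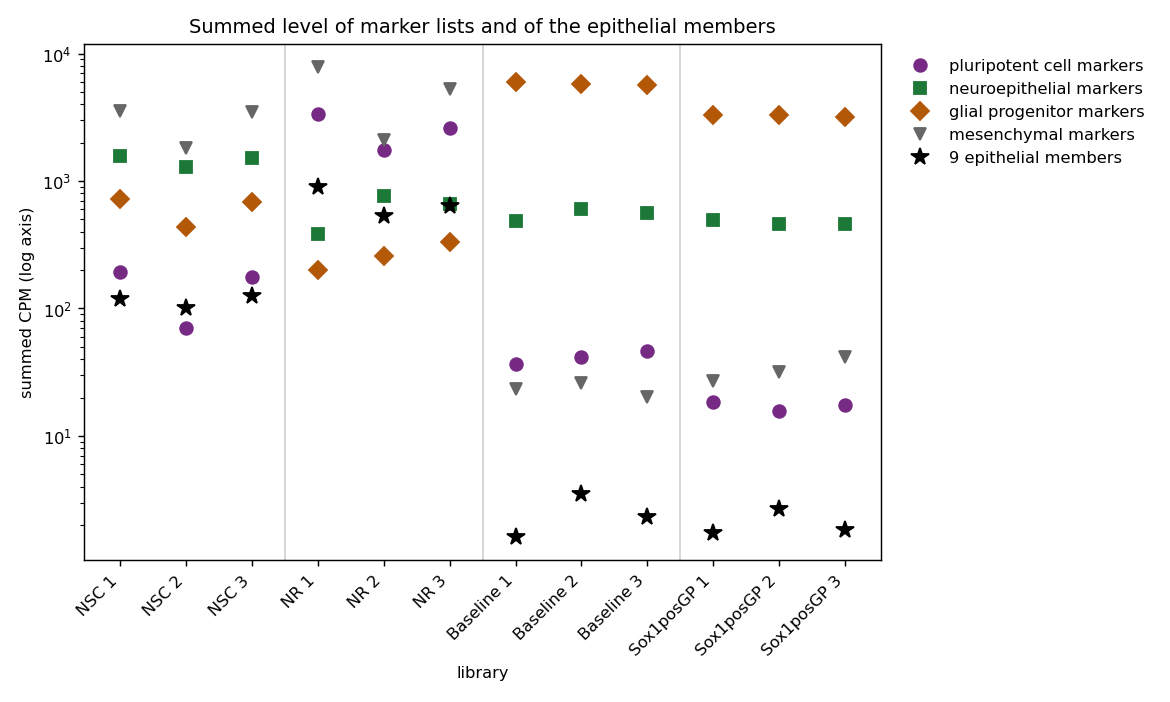
Summed CPM (vertical log axis) in each of the 12 libraries (horizontal axis, groups parted by lines) of 4 marker lists, 1 symbol per list, and of the 9 junction genes other than Cdh2 (stars, epithelial members). Pluripotency markers and the 9 genes are highest in the libraries labelled NR, and glial progenitor markers are highest in Baseline.

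Other epithelia were looked for through their own markers. The 7 surface ectoderm markers summed to between 78.5 and 118 CPM in NR, mostly Tfap2c (98.0, 60.7 and 70.2 CPM), against 13.6 to 20.0 in the other 9 libraries, and in both glial groups Krt5, Trp63 and Dlx3 were at 0, with Krt14 at 0 in Baseline as well. The 10 endoderm markers summed to between 61.4 and 78.3 CPM in NSC (Foxa2 the most abundant), 93.3 and 126 in NR (Foxa1), 31.5 and 40.5 in Baseline (Gata4) and 36.5 and 48.5 in Sox1posGP (Gata4). Of these, Afp and Ttr were at 0 in both glial groups and Sox17 in Sox1posGP. The 5 trophectoderm markers summed to between 16.8 and 28.8 CPM in NR, led by Eomes, and to at most 4.82 CPM elsewhere, with Cdx2, Elf5 and Hand1 at 0 in Baseline. In bulk RNA, a larger share of epithelial cells and more junction RNA per cell cannot be told apart. The part of any of these cell types in the junction values was not tested.

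Cdh1 (ENSMUSG00000000303, GRCm38 chr8:106603351-106670246, plus strand) encodes E-cadherin, the adherens junction protein of epithelia and of pluripotent cells. Its level was 60.05, 50.76 and 61.05 CPM in NSC 1 to 3 and 354.3, 202.9 and 219.4 CPM in NR 1 to 3. In Baseline it was 0.537, 1.116 and 0.209 CPM, from 9, 8 and 1 counts, and in Sox1posGP 0.290, 0.314 and 1.334 CPM, from 1, 2 and 8 counts. Every NR library lay above every NSC library and every NSC library far above both glial groups, which overlapped. The group means were 259 ± 83.01 CPM in NR, 57.3 ± 5.67 in NSC, 0.646 ± 0.596 in Sox1posGP and 0.621 ± 0.459 in Baseline (SD, n = 3), and the last pair did not differ beyond their spread.

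Cdh2 (ENSMUSG00000024304, chr18:16588877-16809246, minus strand) encodes N-cadherin, the adherens junction protein of neural progenitors. It reached 501.3, 627.1 and 528.2 CPM in NSC and 123.4, 334.3 and 215.3 CPM in NR. Baseline had 74.65, 68.36 and 61.57 CPM, and Sox1posGP had 144.2, 153.7 and 145.9 CPM. The NSC libraries were highest and the Baseline libraries lowest without overlap, while NR 1 fell below all Sox1posGP libraries and NR 2 and NR 3 above them. The means were 552 ± 66.2 CPM in NSC, 224 ± 106 in NR, 148 ± 5.08 in Sox1posGP and 68.2 ± 6.54 in Baseline (SD, n = 3), and the NR and Sox1posGP means lay within the spread of NR.

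Divided by exon length, the level of Cdh1 was 0.211, 0.143 and 0.204 times that of Cdh2 in NSC 1 to 3 and 5.06, 1.07 and 1.80 times in NR 1 to 3. Cdh1 was the more abundant of the 2 per kilobase in all 3 libraries labelled NR and the less abundant in the other 9. The ratio was 0.0127, 0.0288 and 0.00598 in Baseline and 0.00354, 0.00360 and 0.0161 in Sox1posGP, so the glial groups overlapped. Per kilobase the mean level of Cdh1 was 12.5 CPM in NSC and 56.6 in NR, and that of Cdh2 was 68.5 in NSC and 27.8 in NR. NR 1, with the highest ratio, also had the highest sum of pluripotency markers and the lowest sum of neuroepithelial markers among the NR libraries, and their part in the ratio was not tested.

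**Figure D2:**
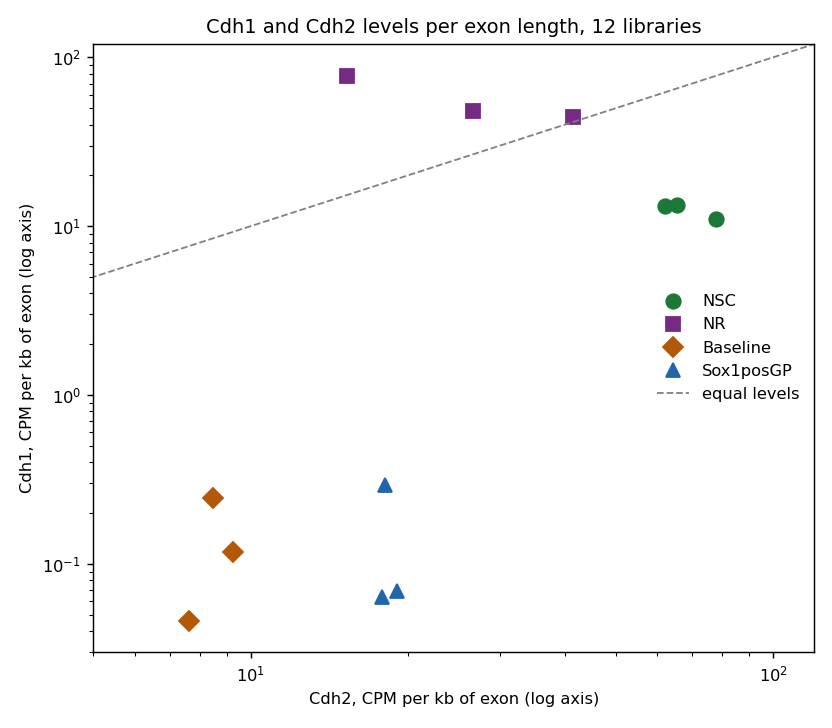
Level of Cdh1 (vertical axis) against level of Cdh2 (horizontal axis), each in CPM per kilobase of exon on log axes, with 1 point per library and a colour and symbol per group. The libraries labelled NR lie above the dashed line of equal level, NR 2 close to it, and the other 9 libraries below it.

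Epcam (ENSMUSG00000045394, chr17:87635979-87651129, plus strand) encodes an adhesion molecule of epithelial and pluripotent cells that binds claudins. Its level was 19.19, 10.77 and 19.26 CPM in NSC and 216.6, 113.8 and 158.6 CPM in NR. Baseline libraries had 5 counts each (0.298, 0.698 and 1.044 CPM) and Sox1posGP libraries had 0, 1 and 1 (0, 0.157 and 0.167 CPM). All NR libraries were above all NSC libraries, these above all Baseline libraries, and Sox1posGP was lowest. The mean was 163 ± 51.5 CPM in NR and 16.4 ± 4.88 in NSC (SD, n = 3). Per kilobase, the mean Epcam level in NR, 74.3 CPM, was above that of each other junction gene described here, and in NSC, at 7.48, it was below Cdh1, Cdh2 and Cldn6.

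The claudins form the strands of tight junctions. Cldn4 (ENSMUSG00000047501, chr5:134945119-134946934, minus strand) had 10.85, 9.116 and 12.25 CPM in NSC and 93.66, 76.17 and 83.31 CPM in NR, with 4, 3 and 0 counts in Baseline and 0, 1 and 1 in Sox1posGP. Cldn6 (ENSMUSG00000023906, chr17:23679249-23682446, plus strand), a claudin of early embryonic epithelia, had 13.18, 19.47 and 15.73 CPM in NSC and 75.55, 56.20 and 63.53 CPM in NR. Its counts were 2, 0 and 0 in Baseline and 1, 1 and 0 in Sox1posGP. For both genes the NR libraries were all above the NSC libraries, and the glial libraries were at or near 0.

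Cldn7 and Cldn3 were the lower claudins per kilobase, with mean levels of 1.71 and 0.919 CPM in NSC and 9.93 and 5.51 in NR, against 5.91 and 46.5 for Cldn4 and 9.37 and 37.8 for Cldn6. Cldn7 (ENSMUSG00000018569, chr11:69964779-69967885, plus strand) had 2.953, 3.764 and 3.292 CPM in NSC and 23.58, 14.48 and 19.95 in NR, with 0, 4 and 0 counts in Baseline and 2, 4 and 0 in Sox1posGP. Cldn3 (ENSMUSG00000070473, chr5:134986214-134987472, plus strand) had 0.694, 1.347 and 1.432 CPM in NSC and 8.251, 5.839 and 6.716 in NR, with 1 count in Baseline and 1 in Sox1posGP. Again no NR library overlapped an NSC library. Cldn3 and Cldn4 lie 39.3 kb apart on chromosome 5 on opposite strands. Ocln (ENSMUSG00000021638, chr13:100496507-100552718, minus strand), a membrane protein of tight junctions outside the claudin family, had 1.387, 1.381 and 1.341 CPM in NSC and 6.712, 4.613 and 5.564 in NR. It had no count in Baseline and 1 in Sox1posGP 1, so its NSC and NR libraries stood apart from each other and from the glial libraries.

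Promoters of the junction genes are shown because the 9 genes other than Cdh2 were all higher in NR than in NSC, while Cdh2 was lower. The E-box CACCTG, read as CAGGTG on the other strand, was looked for in them. It is the letter sequence bound by Snail and Zeb factors, which repress Cdh1 and other epithelial genes. RefSeq promoter windows of GRCm38.p6, from 250 bases before to 50 after a start, were matched for 6 of the 10 genes, in 8 windows. Promoter entries were not found for Cdh1, Cdh2, Esrp1 and Grhl2. The E-box occurred on either strand in 7 of the 8 windows and for all 6 genes, against 20.2% of all 32851 windows and 22.6% of 27025 genes. The Grainyhead-like motif AACCGGTT occurred in 0 of the 8, against 0.146% of all windows. A motif this rare would hardly be met in 8 windows, so nothing is read from its absence. The 250 bases before the starts of Epcam (chr17:87635729-87635978, plus strand) and Cldn4 (chr5:134946935-134947184, minus strand) follow, 5′ to 3′, with the E-box in capitals. After them come 30 bases around 1 match each at Cldn3 (chr5:134986233-134986262, plus strand), Cldn6 (chr17:23679260-23679289, plus strand), Cldn7 (chr11:69965312-69965341, plus strand) and Ocln (chr13:100552694-100552723, minus strand). The Cldn3 match lies after the start, as does the Ocln match for 1 of its pair of windows, which overlap. These matches describe letters and not bound sites.
Epcam: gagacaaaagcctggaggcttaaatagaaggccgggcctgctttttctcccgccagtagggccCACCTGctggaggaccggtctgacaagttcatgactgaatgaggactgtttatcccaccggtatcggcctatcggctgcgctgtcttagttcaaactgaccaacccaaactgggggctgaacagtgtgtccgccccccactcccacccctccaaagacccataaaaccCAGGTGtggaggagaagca
Cldn4: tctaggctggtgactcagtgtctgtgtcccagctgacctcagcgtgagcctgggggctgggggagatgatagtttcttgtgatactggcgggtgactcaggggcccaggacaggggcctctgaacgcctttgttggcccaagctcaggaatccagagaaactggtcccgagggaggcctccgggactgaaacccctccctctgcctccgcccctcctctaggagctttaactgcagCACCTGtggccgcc
Cldn3: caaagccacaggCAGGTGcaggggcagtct
Cldn6: gggaaacgcacgCAGGTGgctatcgccgca
Cldn7: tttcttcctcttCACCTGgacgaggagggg
Ocln: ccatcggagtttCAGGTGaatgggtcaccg

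Esrp1 (ENSMUSG00000040728, chr4:11331933-11386783, minus strand) encodes a splicing regulator of epithelial isoforms, and Grhl2 (ENSMUSG00000022286, chr15:37233036-37363569, plus strand) a Grainyhead-like transcription factor that activates junction genes. Esrp1 had 5.324, 2.831 and 4.968 CPM in NSC and 58.87, 33.10 and 43.36 in NR, with 3, 2 and 1 counts in Baseline and 1, 3 and 1 in Sox1posGP. Grhl2 had 5.526, 2.003 and 5.699 CPM in NSC and 54.06, 22.10 and 36.53 in NR, with 4, 3 and 3 counts in Baseline and 0, 4 and 0 in Sox1posGP. NSC 2 was the lowest NSC library and NR 2 the lowest NR library for both, and the groups did not overlap. The mean of Esrp1 was 4.38 ± 1.35 CPM in NSC and 45.1 ± 12.97 in NR, and that of Grhl2 was 4.41 ± 2.09 and 37.6 ± 16.0 (SD, n = 3), the widest spread relative to the mean among the 10 genes in NSC. Genes on the opposite strand overlap exons of Cldn3, Esrp1 and Grhl2, with at most 23, 1 and 28 counts in any library. The strand setting of the counting is not given in the sources used here, so shared reads cannot be assigned between them.

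**Figure D3:**
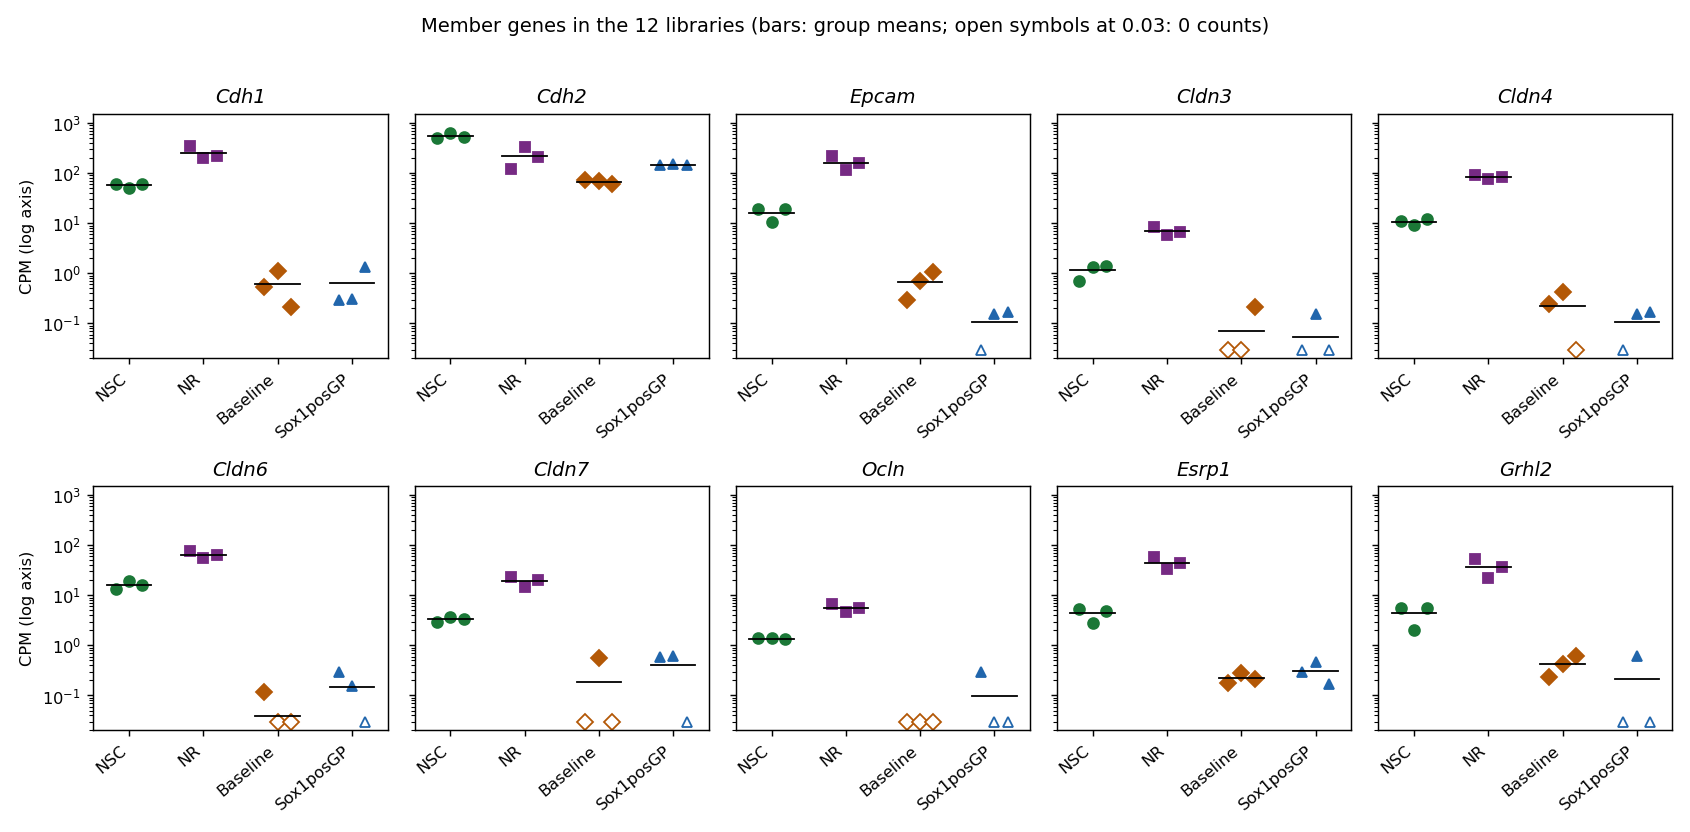
CPM of the 10 genes in each library, with 1 panel per gene, 1 symbol per library and lines at the group means, on a log axis with libraries at 0 counts as open symbols near the bottom. In all panels except that of Cdh2, the libraries labelled NR are highest, NSC libraries follow and the glial libraries are lowest.

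Summed over the 9 genes other than Cdh2, levels were 119, 101 and 125 CPM in NSC 1 to 3 and 892, 529 and 637 in NR. They were 1.61, 3.49 and 2.30 CPM in Baseline and 1.74, 2.67 and 1.84 in Sox1posGP. The NR libraries were all above the NSC libraries, and the ranges of the glial groups overlapped.

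The comparison of NSC with Baseline asks how unsorted neuroepithelial cells differ from glial progenitors labelled Sox1-negative. The 10 junction genes were all higher in NSC, the 9 epithelial ones and Cdh2 alike. Cdh2, which both groups express, had the smallest value except after thinning, where that of Grhl2 was smaller, and differences could be measured least well for the genes that Baseline hardly expresses. A gene was called at an adjusted p under 0.1 and a p under 0.05. By this rule 10 of 10 were higher and 0 lower, where 42.7% of the 17003 tested genes were higher and 32.5% lower, and no NSC library overlapped a Baseline library for any of the 10. The 9 epithelial genes passed the filter through NSC and NR alone, so here and in each comparison of a glial group with NSC or NR nothing is read from the count against those shares. The median log2 fold change was 4.85, or 4.62 with Ocln at its bound, and 0.20 over all tested genes.

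In the quasi-likelihood test of edgeR with adjustment by Benjamini-Hochberg, Cdh1 was higher in NSC in 3 of 3 libraries by a log2 fold change of 6.50 (SE 0.36, adjusted p = 2.02e-09), and Cdh2 by 3.01 (SE 0.26, adjusted p = 1.83e-07). The log2 fold change in this comparison was 4.93 for Epcam (SE 0.45), 5.43 for Cldn4 (SE 0.32), 4.47 for Cldn7 (SE 0.70), 4.35 for Esrp1 (SE 0.47) and 3.62 for Grhl2 (SE 0.68). The adjusted p of the other 8 genes was at most 2.89e-04 in the same test. Without Baseline 1 the value was 4.27 for Epcam and 3.30 for Cldn7, and without Baseline 2, which holds all 4 Cldn7 counts of that group, it was 9.11 for Cldn7. Fitted values against a group left at 0 counts, here and in the comparisons that follow, depend on the prior count and are no bound. A prior count of 2 gave 3.78 for Cldn7. With all libraries thinned to the smallest total it was 4.28 for Epcam, 4.69 for Cldn4 and 2.18 for Grhl2. By pooled counts, Cldn3 was 31.6-fold higher in NSC (95% interval 5.55 to 1257), resting on 1 count in Baseline 3. Cldn6 was 225-fold higher by pooled counts (62.2 to 1860.0), resting on 2 counts in Baseline 1. Ocln, at 0 in Baseline, was at least 13.1-fold higher.

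The comparison of NR with Baseline asks the same of the cells labelled NR and uses the same Baseline libraries, so its values are not independent of those for NSC. All 10 genes were again higher, and for the 9 epithelial genes the values were larger than in NSC against Baseline. Only Cdh2 had a smaller value than in that comparison. The number called was 10 higher and 0 lower, where 44.2% of tested genes were higher and 32.8% lower, and no library overlapped between the groups. That count too is not read against the shares. The median log2 fold change was 7.97, or 7.53 with Ocln at its bound, against 0.19 over all tested genes.

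In NR against Baseline the log2 fold change was 8.67 for Cdh1 (SE 0.35) and 1.71 for Cdh2 (SE 0.25), with an adjusted p of 9.85e-11 and 2.95e-05 in the same test. It was 8.23 for Epcam (SE 0.41), 8.40 for Cldn4 (SE 0.29), 7.004 for Cldn7 (SE 0.62), 7.70 for Esrp1 (SE 0.42) and 6.69 for Grhl2 (SE 0.62). The largest adjusted p of the 8 other genes was 3.74e-07 in this test. Epcam had 7.57 without Baseline 1 and 7.61 after thinning, and Cldn7 had 5.82 without Baseline 1, 11.60 without Baseline 2 and 6.28 with a prior count of 2. Thinning also gave 7.59 for Cldn4 and 5.53 for Grhl2. Pooled counts of Cldn3 were 192-fold higher in NR (34.3 to 7600.0) and those of Cldn6 907-fold higher (251 to 7489), on the same 1 and 2 Baseline counts. Ocln was at least 52.0-fold higher.

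The comparison of NR with NSC sets libraries labelled as sorted against unsorted ones. Their marker sums differ as well, and sorting cannot be told apart from other differences between these groups. The 9 epithelial genes were higher in NR and Cdh2 was lower, and both groups were deep enough for every gene to be well counted. The direction of Cdh2 is therefore opposite to that of the other 9. The number called was 9 higher and 1 lower, Cdh2, where 29.5% of tested genes were higher and 25.8% lower, and the groups did not overlap for any of the 10. Because the genes were chosen with earlier results of these data known, this count is not read against those shares. The median log2 fold change was 2.56, with none of the 10 at 0 in either group, against 0.01 over all tested genes.

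Cdh1 was higher in all 3 NR libraries by a log2 fold change of 2.17 (SE 0.20, adjusted p = 3.82e-06 in the same test), and Cdh2 was lower with -1.30 (SE 0.24, adjusted p = 6.27e-04). For the claudins, NR against NSC gave 2.59 for Cldn3 (SE 0.35), 2.97 for Cldn4 (SE 0.16), 2.01 for Cldn6 (SE 0.18) and 2.53 for Cldn7 (SE 0.36). The largest of the 10 were Esrp1 with 3.35 (SE 0.25) and Epcam with 3.31 (SE 0.26), and Grhl2 had 3.07 (SE 0.40) and Ocln 2.03 (SE 0.29). The adjusted p of these 8 was at most 1.75e-04 in the same test. Libraries of NSC and NR with the same replicate number deviated together, with correlations of 0.229, 0.490 and 0.296 across genes, but NR 3 with NSC 1 (0.301) and NR 1 with NSC 3 (0.186) did so too, and only for replicate 2 did the same number stand out. A block by replicate number was also fitted. With the block Cdh1 had 2.14 and Cdh2 -1.35, and in a fit of only these groups with the block 2.09 and -1.45. The pluripotency markers were higher in NR for 10 of 10 (median log2 fold change 4.04) and the neuroepithelial markers lower for 8 of 8 (-1.47), and their part in the junction values was not tested.

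The comparison of Sox1posGP with Baseline asks what changes in glial progenitors when Sox1 is activated and the cells are sorted for it. Of the junction genes only Cdh2 was called, higher in Sox1posGP. The other 9 had at most 18 counts over the 3 libraries of either group, and none of their differences was called at this depth. Called were 1 higher and 0 lower of the 10, where 21.6% of tested genes were higher and 22.7% lower. The 9 passed the filter through NSC and NR alone, so nothing is read from that count against the background. The groups were apart without overlap for Cdh2 (above) and Epcam (below), and overlapped for the other 8. The median log2 fold change was 0.65 over the 10 genes, and 0.14 without the 3 at or under the floor in both groups, against 0 over all tested genes.

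Cdh2 was higher in 3 of 3 Sox1posGP libraries by a log2 fold change of 1.11 (SE 0.26, adjusted p = 0.00347 in the same test). Cdh1 differed by 0.14 (SE 0.82, adjusted p = 0.936 in this test), and leaving out 1 library turned its direction, with -0.08 without Baseline 1, -0.06 without Baseline 3 and -1.03 without Sox1posGP 3. After thinning Cdh1 had -0.05. Pooled counts of Epcam were 4.13-fold lower in Sox1posGP (95% interval 0.961 to 37.2) and those of Cldn4 1.93-fold lower (0.367 to 19.0), and the same test gave an adjusted p of 0.283 and 0.532. The fitted log2 fold change of Epcam was -2.03, and moved to -2.66 after thinning and -2.65 without Baseline 1. Epcam was called without NSC 2 and NR 2 in the fit (log2 fold change -1.99, adjusted p = 0.0892 in the same test, range over its alternatives 0.0892 to 0.432). Thinning, an alternative that leaves fewer counts, led to a call for Cldn4 (-3.61, adjusted p = 0.0654 in the same test, range 0.0654 to 0.774). No fold is given for Cldn3, Cldn6 and Ocln, which were at or under the floor in both groups. By immunostaining, the paper reports occludin protein as absent in progenitors and induced in Sox1-GFP-positive cells. Ocln RNA, with 0 counts in Baseline and 1 in Sox1posGP, is too low to be set beside that protein result.

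The other 3 genes were not called in Sox1posGP against Baseline either. Cldn7 had 1.36 (SE 1.20, adjusted p = 0.414 in the same test), with 0.23 without Baseline 1, 0.55 without Sox1posGP 2 and 2.03 without Sox1posGP 3. Without Baseline 2, which leaves that group at 0 counts, Cldn7 was called (fitted 6.00, adjusted p = 0.0321 in the same test, range over its alternatives 0.0321 to 0.941). Esrp1 had 0.57 (SE 0.94, adjusted p = 0.685) and -0.04 after thinning in the same test. Grhl2 had -0.49 (SE 1.40, adjusted p = 0.830 in this test), -1.87 after thinning, -5.90 without Sox1posGP 2, which holds its 4 counts, and 0.17 without Sox1posGP 3. The values of Cldn7 and Grhl2 thus rest on libraries with 4 counts or fewer. The counts of Cldn7 in Baseline and of Grhl2 in Sox1posGP came from 1 library each.

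The comparison of Sox1posGP with NSC asks how far sorted Sox1-positive glial progenitors differ from neuroepithelial cells that express Sox1. All 10 genes were lower in Sox1posGP, least for Cdh2. These values share the Sox1posGP libraries with the comparison to Baseline. The number called was 10 lower and 0 higher, where 39.9% of tested genes were lower and 30.0% higher, and no library overlapped between groups. The filter again bars reading this count against the shares. The median log2 fold change was -4.20, and -0.18 over all tested genes.

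Cdh1 was lower in 3 of 3 Sox1posGP libraries with a log2 fold change of -6.36 against NSC (SE 0.39, adjusted p = 8.43e-09 in the same test), or -7.54 without Sox1posGP 3, and Cdh2 with -1.90 (SE 0.25, adjusted p = 1.41e-05). Cldn7 had -3.11 (SE 0.66), and -3.93 and -2.45 without Sox1posGP 2 and Sox1posGP 3. Esrp1 had -3.78 (SE 0.51). Grhl2 had -4.11 (SE 0.85), with -9.53 without Sox1posGP 2 and -3.46 without Sox1posGP 3, and the adjusted p of these 3 was at most 9.12e-04 in the same test. The pooled level of Epcam was 134-fold lower in Sox1posGP than in NSC (95% interval 37.0 to 1106), that of Cldn4 85.5-fold (23.6 to 707) and that of Cldn6 124-fold (34.3 to 1025), each from 2 Sox1posGP counts. Cldn3 was 17.4-fold lower (3.06 to 692) and Ocln 21.7-fold lower (3.83 to 863), each from 1 count, in Sox1posGP 2 and Sox1posGP 1. The adjusted p of these 5 was at most 0.00131 in the same test.

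The comparison of Sox1posGP with NR uses the same Sox1posGP libraries. The 9 epithelial genes were lower in Sox1posGP each by a larger value than against NSC. Cdh2 was called lower although its groups overlapped, and 8 alternatives ended that call. Called were 10 lower and 0 higher, where 42.9% of tested genes were lower and 30.8% higher, and 9 of the 10 did not overlap. As above, the filter bars reading it against the shares. The median log2 fold change was -7.16, and -0.19 over all tested genes.

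Cdh2 had a log2 fold change of -0.60 in Sox1posGP against NR (SE 0.25, adjusted p = 0.0405 in the same test, range over 22 alternatives 6.32e-08 to 0.381). NR 1 lies below the Sox1posGP libraries, and the call was lost in 8 alternatives. In 4 of them the adjusted p was over 0.1, namely the fit without NR 2 (-0.20, adjusted p = 0.312 in the same test), without NSC 2 and NR 2 (-0.15, 0.381), with only the groups compared (-0.54, 0.132), and without Sox1posGP 1 (-0.53, 0.1253). In the other 4 the value was about as large and the adjusted p was under 0.1, but the unadjusted p was not under 0.05. These were the fits without Baseline 1 (-0.56, adjusted p = 0.0737 in the same test), Baseline 2 (-0.57, 0.0709), NR 3 (-0.59, 0.0785) and Sox1posGP 3 (-0.60, 0.0895). Cdh1 had -8.53 (SE 0.37, adjusted p = 2.93e-10 in the same test), or -9.71 without Sox1posGP 3. For Cldn7 it was -5.64 (SE 0.59), with -6.46 and -4.98 without Sox1posGP 2 and Sox1posGP 3, and for Esrp1 -7.13 (SE 0.43). Grhl2 had -7.18 (SE 0.71), with -12.60 without Sox1posGP 2 and -6.53 without Sox1posGP 3, and the adjusted p of these 3 was at most 1.27e-06 in the same test. Pooled counts were 1211-fold lower for Epcam (95% interval 335 to 10000.0), 106-fold for Cldn3 (18.9 to 4186), 654-fold for Cldn4 (181 to 5400.0), 499-fold for Cldn6 (138 to 4125) and 85.9-fold for Ocln (15.4 to 3402). Adjusted p values of these 5 reached 2.405e-06 in the same test.

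**Figure D4:**
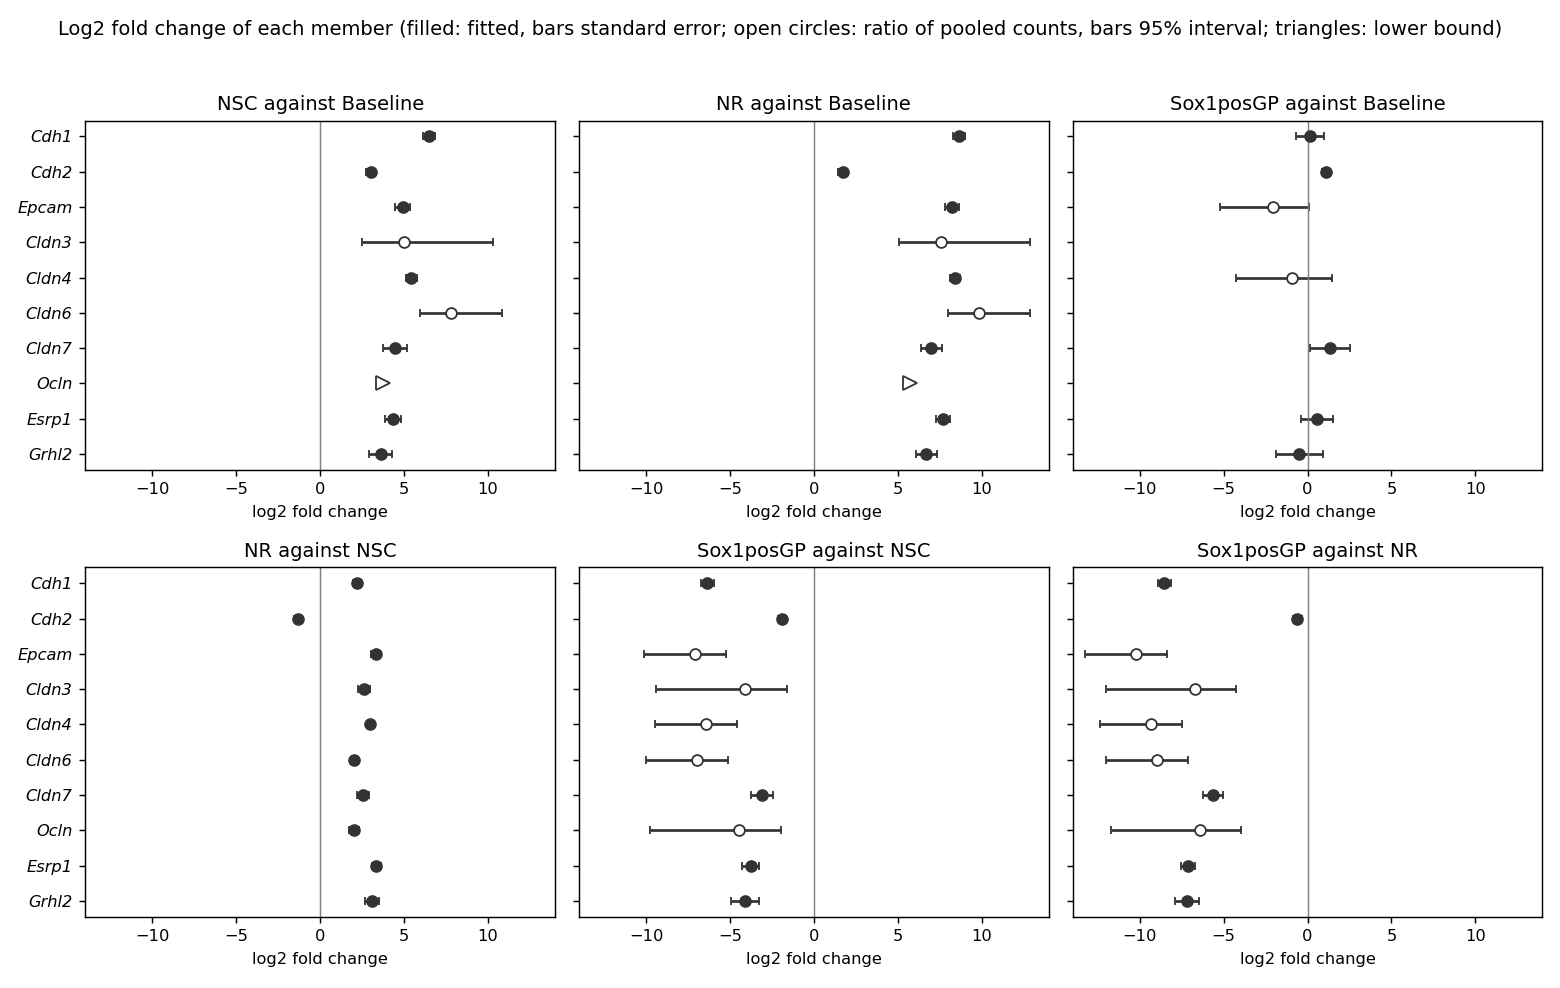
Log2 fold change of the 10 genes in the 6 comparisons, 1 panel each. Filled points are fitted values with standard errors, open circles are ratios of pooled counts with 95% intervals where a group had 1 to 3 counts, triangles are lower bounds where a group had none, and no symbol is drawn where both groups were at or under the floor.

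Other genes of epithelial junctions were followed in lists of known members, for NR against NSC and for Sox1posGP against Baseline. Over all 17003 tested genes 29.5% were higher and 25.8% lower in NR against NSC. Some genes of the lists, such as Ovol1, Cdh15 and Cdh5, passed the filter only because of their level in NR and could hardly be called lower, so the counts of the lists are not read against these shares. Of 15 tested epithelial regulators and apical genes 14 were higher and 0 lower (median log2 fold change 2.71), with Elf3 at 4.31, Ovol1 at 3.59 and Rab25 at 3.45 the largest. The 4 keratins of simple epithelia were all higher (median 2.05), with Krt19 at 2.69, Krt8 at 2.12, Krt7 at 1.98 and Krt18 at 1.79. The number called higher was 4 in every alternative. Krt19 had 5.794, 12.91 and 6.979 CPM in NSC and 35.59, 103.1 and 25.77 in NR. The size of its change therefore leans on NR 2, and a value without NR 2 is not given here. Of 6 tested desmosome genes 5 were higher and 0 lower (median 1.51): Dsg2 (3.52), Pkp3 (2.69), Dsp (1.52), Dsc2 (1.504) and Pkp4 (0.32). Of 18 other tight junction genes 10 were higher and 2 lower, Cldn12 (-0.92) and Jam3 (-0.73), with a median of 1.05, and without NSC 2 the number lower was 4.

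Among 17 other cadherins 5 were higher in NR than in NSC and 9 lower, with a median log2 fold change of -0.85. The higher were Cdh3 (2.83), Cdh15 (2.56), Cdh9 (1.70), Cdh5 (1.58) and Cdh19 (1.37), and after thinning 1 gene of the list was called higher. The calls of Cdh15, Cdh9 and Cdh5, and that of Nectin4 named below, follow in part from the filter. The largest falls were those of Cdh22 (-1.87), Cdh7 (-1.83) and Cdh6 (-1.44). The P-cadherin gene Cdh3 had 10.25, 14.61 and 10.03 CPM in NSC and 88.12, 87.3 and 71.34 in NR, at most 0.471 CPM in the glial libraries, and so lay apart between NSC and NR like Cdh1. Of 12 partners of cadherins in adherens junctions 4 were higher, Nectin4 (2.10), Jup (1.49), Nectin2 (0.78) and Ctnna1 (0.27), and 5 lower, Ctnnd2 (-1.59), Ctnna2 (-0.79), Nectin1 (-0.74), Ctnnb1 (-0.43) and Nectin3 (-0.40), with a median of 0.02. Of 11 polarity genes 2 were higher, Prkcz (1.15) and Patj (1.12), and 5 lower, Crb2 (-1.74), Crb1 (-1.37), Llgl1 (-0.92), Scrib (-0.66) and Pard3 (-0.55), with a median of -0.24, and 4 were higher without NSC 2 and NR 2. Of 6 factors of the epithelial to mesenchymal transition 3 were higher, Snai1 (1.19), Snai2 (1.04) and Twist2 (0.94), and 2 lower, Zeb2 (-1.47) and Zeb1 (-0.70), with a median of 0.59. The median over all tested genes was 0.01 throughout this comparison.

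In Sox1posGP against Baseline 21.6% of all tested genes were higher and 22.7% lower, and a share near these is no result about a list. Many genes of the lists have few or no counts in both glial groups and were tested because NSC and NR express them, most of the regulators among them, so a low count of calls is no result either. Of the 18 tight junction genes 5 were higher and 2 lower (median 0.63, or 0.88 without 5 genes at or under the floor in both groups). The 3 largest rises were those of Marveld3 (pooled ratio 10.9, 95% interval 1.32 to 501), Cgn (2.85) and Cgnl1 (1.51), and the lower genes were Jam2 (-1.18) and Jam3 (-0.44). Without Sox1posGP 3 the number higher was 3. Of the 17 other cadherins 6 were higher and 1 lower (median 0.66, or 0.86 without 6 genes at or under the floor and with Cdh26 at its bound), with Cdh10 at 1.73, Cdh6 at 1.42 and Cdh26 at least 3.63-fold higher with overlapping libraries, and Cdh24 (-0.83) lost its call without Baseline 1, Baseline 3 or Sox1posGP 2, leaving 0 lower. Of the regulators 0 were higher and 1 was lower, Grhl1, with 2.86, 3.07 and 3.13 CPM in Baseline, 0.579, 0.628 and 1.00 in Sox1posGP and a log2 fold change of -1.98 (SE 0.36, adjusted p = 6.57e-04 in the same test), where the list's median was -0.48 (-0.36 without 4 genes at or under the floor). No Grhl1 value of Sox1posGP reached Baseline's.

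The keratins had 0 called in either direction in Sox1posGP against Baseline (median 0.10, or 0.32 without Krt7, which was under the floor in both). Adherens junction partners had 3 higher, Ctnna2 (1.74), Jup (0.82) and Afdn (0.54), and 3 lower, Ctnnb1 (-0.49), Nectin3 (-0.40) and Ctnna1 (-0.32), with a median of -0.05 (0.14 without Nectin4, under the floor in both). With only the groups compared 5 were lower. Of the desmosome genes Dsc2 (pooled ratio 10.9, 1.32 to 501) and Dsp (7.26, 0.719 to 358) were called higher and Pkp2 (-2.22) lower, with a median of -0.23 (1.46 without Dsg2 and Pkp3, at or under the floor in both). Dsc2 rests on 6 counts in Sox1posGP and Dsp on 4, against 1 each in Baseline. For Dsp the interval includes no change although the gene was called. Fitting without a filter or with only the groups compared, or leaving out Baseline 1 or any 1 Sox1posGP library, took the desmosome genes higher to 1, and thinning or leaving out NR 1, any 1 Baseline library, Sox1posGP 2 or Sox1posGP 3 took those lower to 0. Polarity genes had 2 higher, Prkcz (1.13) and Pard6b (0.83), and 5 lower, Crb1 (-0.94), Pard6a (-0.61), Dlg1 (-0.55), Pard3 (-0.41) and Prkci (-0.28), with a median of -0.28. That became 0 higher after thinning, 1 higher without Baseline 2 or Sox1posGP 2, and 3 lower without Sox1posGP 2. Zeb1, a repressor of Cdh1, had 329, 319 and 309 CPM in Baseline and 258, 244 and 263 in Sox1posGP, a log2 fold change of -0.33 that was not called without Baseline 1, Sox1posGP 1 or Sox1posGP 2. In the other direction, pooled counts of Snai2, also a repressor of Cdh1, were 53.3-fold higher in Sox1posGP (95% interval 17.6 to 263) and those of Twist2 23.6-fold (3.55 to 1003). After thinning or with only the groups compared 1 factor of the list was called higher, and the median of the list was -0.11. The median over all tested genes was 0.

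**Figure D5:**
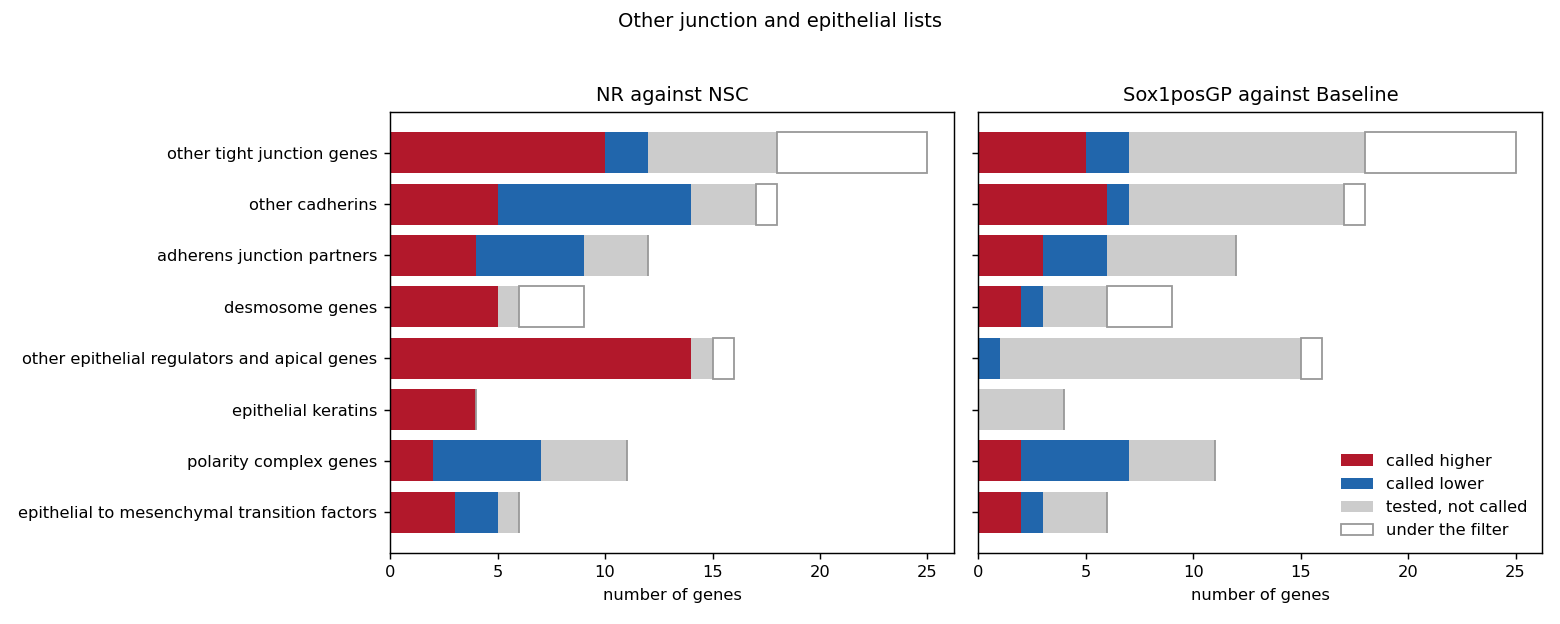
Number of genes (horizontal axis) of 8 lists that were called higher, called lower, tested and not called, or under the filter on low counts, as stacked bars, for NR against NSC (left) and Sox1posGP against Baseline (right). Regulators, keratins and desmosome genes were called in the higher direction alone in NR against NSC.

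The genes nearest in pattern were found by the root mean square difference of centred log2 CPM over the 12 libraries, among 17002 other genes. Nearest to Cdh1 were Car4 (0.46), Cldn4 (0.59), Ccn2 (0.60), Rps4l (0.66) and Grhl3 (0.70), so 1 of the 5 was another of the junction genes. Nearest to Epcam were Ifitm1 (0.69), Nup62cl (0.75), Rps4l (0.75), Trh (0.76) and Lad1 (0.78), and Cldn4 ranked 17 at 0.91. Nearest to Cdh2 were Apba2 (0.18), Syp (0.23), Nrep (0.24), Heg1 (0.26) and Mn1 (0.29), while Cdh1 ranked 16912 at 3.29 and Epcam 16940 at 3.397. Ranked from the other side at the same differences, Cdh2 was 4060 from Cdh1 and 4906 from Epcam. Apart from Cldn4 and Cdh2, the junction genes ranked between 68 (Cldn6) and 869 (Cldn3) from Cdh1. No 50-base run of the exons of 9 of the 10 genes occurred in a gene outside the 10, and for Grhl2 5 of 8747 did. Runs shared among the 10 genes were not looked for.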

How the data were processed

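RNA of 12 libraries (4 groups, 3 replicates each) was made into sequencing libraries with SMART-Seq v4 and MicroPlex kits after PicoPure isolation. The authors deposited whole-number counts per Ensembl gene without normalization, and the submitters' processing notes name STAR 2.6, RSEM 1.1.14 and mm10. Groups were taken from the labels, and all columns were used. Symbols, positions and exon lengths came from GENCODE M21 (GRCm38): 45143 of 45706 genes had a symbol, and the 563 others held 0.124% of counts. R 4.3.3 with edgeR 4.0.16 and limma 3.58.1 was used for tests, DESeq2 1.42.0 for an alternative, and pandas 2.3.3, matplotlib 3.10.9 and scipy 1.17.1 under Python 3.11.15 for tables, figures and intervals. Counts were scaled by TMM, filtered by filterByExpr and fitted by glmQLFit over 12 libraries without a block, with edgeR's default prior count in log2 fold changes and 2 in log2 CPM. P values of glmQLFTest were adjusted by Benjamini and Hochberg over 17003 genes. Standard errors (SE) are the size of the log2 fold change over the square root of F. Where a group had 1 to 3 counts, the ratio of pooled counts with an exact 95% interval replaces the fitted value, and at 0 counts a lower bound against 3 counts over the group. Same-numbered libraries were checked for pairing by correlation of their deviations across genes. Same-numbered NSC and NR libraries lay over 0.1, as did some with different numbers, and same-numbered libraries of the other comparisons lay between -0.047 and 0.062.

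The genes and lists were chosen with earlier results of these data known. Named genes are the 10 junction genes, at most 3 per direction with the largest change among called genes of each list, the most abundant gene of each marker list, and the 5 nearest in pattern to Cdh1, Epcam and Cdh2. Cdh5, Cdh19, Dsc2, Pkp4, Krt18, Ctnna1, Ctnnb1, Nectin3, Scrib and Pard3 in NR against NSC, and Pard3 and Prkci in Sox1posGP against Baseline, were named after their values were seen. The lists were other tight junction genes, other cadherins, adherens junction partners, desmosome genes, epithelial regulators and apical genes, keratins, polarity genes, transition factors and markers of 7 cell types, of whose genes 166 of 167 matched. Calls were also tested on simulated data, and no outcome of that is used here. Alternatives were upper-quartile scaling, size factors of DESeq2 and its Wald test, a prior count of 2, other filters, the block, only the groups compared, thinning to 3407066 counts, other thresholds and each library left out. Pooled ratios, leaving out NSC 2 and NR 2 together and the block in a fit of only NSC and NR were chosen after seeing the data.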

Additional observations from a re-analysis of the deposited data

How the results depend on the processing

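Over the 6 comparisons, 57 log2 fold changes of the 10 junction genes were recomputed under up to 23 alternatives each. Of the 1258 values 1241 had the direction and the side of the threshold of the value reported, 8 kept the direction and lost the call, 3 kept the direction and gained a call, and 6 turned direction. The 8 lost calls were all of Cdh2 in Sox1posGP against NR, whose log2 fold change ranged from -0.87 to -0.15. The other changes all fell in Sox1posGP against Baseline. There 2 of the 10 genes were called after thinning to the smallest total, 2 without NSC 2 and NR 2 together (chosen after seeing the data), 1 to 2 with each library left out, and 0 with a fold change over 4. Cdh1 turned to -0.0496 after thinning, -0.08 without Baseline 1, -0.06 without Baseline 3 and -1.03 without Sox1posGP 3, and ranged from -1.03 to 0.58 with each library left out. Esrp1 turned to -0.0442 after thinning, and Grhl2 to 0.17 without Sox1posGP 3, with a range of -5.90 to 0.17 with each library left out. The cause of these changes was not tested, beyond the counts of 4 or fewer per library that Cldn7 and Grhl2 rest on. A fold minimum of 4 left 9 of 10 called, all except Cdh2, in the 4 comparisons other than NSC against Baseline, with 10, and Sox1posGP against Baseline. In a fit of only Sox1posGP and Baseline the 9 epithelial genes did not pass the filter and have no value. Scaling by DESeq2 size factors or the upper quartile moved the median of all genes by less than 0.1. Depth limits the glial groups, where 3 counts over a group equal 0.104 CPM in Baseline and 0.190 in Sox1posGP.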
